A study of Mus musculus with 16 samples.

Results

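The genes described here are 10 protein-coding or uncharacterised neighbours of Kpna4 on mouse chromosome 3, set out to show the surroundings of a targeted allele: Trim59, Smc4, Ift80, 1110032F04Rik, Ppm1l, Nmd3, Bche, Serpini1, Fstl5 and Rapgef2. They were chosen by position, within 10 Mb of Kpna4, and with earlier results of the same comparison in view, out of 84 genes in that window and 24421 gene symbols in the count table. Kpna4 encodes importin α3, and its knockout is one of the genotypes studied. Because the comparison of the importin α3 knockouts with wild types helped to choose the genes, their values in it are given as a description without a test.

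RNA from lumbar dorsal root ganglia of C57BL/6 mouse embryos at embryonic day 13.5 was sequenced by a polyA-based method in 16 libraries, 4 per group. KO_alpha3 holds importin α3 knockouts (libraries 42, 50, 75 and 81), and WT_alpha3 the wild types labelled with that line (45, 54, 55 and 79). KO_beta lacks the 3′ untranslated region of importin β1, which lies on another chromosome (398, 402, 406 and 411), and WT_beta holds the wild types labelled with the second line (399, 401, 410 and 415). Values of a group are listed in this order of libraries. The design text gives the 8 wild types as serving both projects. The labels do not describe how either allele was made, which strain the DNA beside it came from, or whether libraries came from separate embryos. Consequences of the missing protein, of the altered locus and of linked DNA can therefore not be told apart, and the p-values given cover only how these libraries spread.

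Importin α proteins are adaptors: they bind the nuclear localization signal of a cargo protein and join it to importin β1, which carries the complex through the nuclear pore. A gene close to a targeted allele is inherited with it, so it shares the allele's history in every knockout animal. A ganglion at this stage holds sensory neurons, dividing progenitors and the glial precursors that ensheath them, and a bulk library mixes their RNA. In such a mixture, fewer cells of a type and less RNA per cell cannot be told apart.

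Positions are from RefSeq on GRCm38.p6. Kpna4 lies at chr3:69072221-69127092 on the minus strand. On its lower-coordinate side, Trim59 ends 27.5 kb away, Smc4 37.6 kb, Ift80 67.5 kb and 1110032F04Rik 200.1 kb. On its higher-coordinate side, Ppm1l begins 189.8 kb away, Nmd3 595 kb, Bche 4.51 Mb, Serpini1 6.43 Mb, Fstl5 6.95 Mb and Rapgef2 9.94 Mb. Ift80 and Smc4 stand head to head with 58 bases between their ends, and Smc4 and Trim59 stand tail to tail with 669 bases between them.

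The span of Smc4 also holds the precursors of 2 microRNAs, Mir15b and Mir16-2, whose main mature products share a seed (bases 2 to 8, in capitals). They are shown because they lie inside a gene whose level varied widely between these libraries.
mmu-miR-15b-5p: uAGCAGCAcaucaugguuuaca
mmu-miR-16-5p: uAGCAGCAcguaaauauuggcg
Both precursors had 0 counts in all 16 libraries, and polyA-based libraries do not capture mature microRNAs. RefSeq promoter windows, from 250 bases before to 50 after a start, were matched for 6 of the 10 genes. The windows were searched on both strands for 3 motifs of genes used in dividing cells: the CHR element (TTTGAA or TTCGAA), the CCAAT box (CCAAT) and E2F sites (TTTCCCGC, TTTGGCGC, TTTCGCGC or TTTGCCGC). Trim59, which followed the cell cycle genes described below, had 1 CHR match and 1 CCAAT match and no E2F match. The stretches around them are shown in the direction of the gene, with the match in capitals; both motifs read on the opposite strand.
Trim59 CHR at chr3:69044810-69044839, minus strand: cggccgttggtgTTCAAAggccgcccgcgc
Trim59 CCAAT at chr3:69044786-69044815, minus strand: ccgcgctctctcATTGGcggaggcggcgcg
The 2 matches do not overlap. Such matches were not particular to Trim59. Fstl5 also had 1 CHR match and 1 CCAAT match, in separate windows, and no E2F match. Its r with the mean of the cell cycle genes was -0.35. Bche, Serpini1 and Rapgef2 had 1 CCAAT match each, and Kpna4 had 2. Smc4 had no matched window. Of 32851 promoter windows, 19.2% held a CHR match, 37.4% a CCAAT match and 2.26% an E2F match, so each letter string is found in many genes, and a match is not a binding site.

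Total counts per library ran from 19682595 to 26873361. Levels are given as CPM (counts divided by TMM-adjusted library size), and log2 fold changes are from edgeR's quasi-likelihood fit with their standard error (SE). Kpna4 itself had 0.719, 0.982, 0.619 and 1.13 CPM in KO_alpha3 and 73.9 to 75.8 CPM in KO_beta, against 69.5 to 81.4 CPM in the 8 wild types. The KO_alpha3 mean was 1.13% of the wild-type mean, and an exact 2-sided permutation test of log2(CPM + 1) gave p = 0.00404 (4 against 8 libraries), the smallest p that 495 splits allow. All 10 genes passed the filter on low counts, with 15 to 2943 counts in a library, as did 38 of the 74 other genes in the window. Y-linked genes were read in 10 libraries: 50 and 75 of KO_alpha3, all 4 of KO_beta and all 4 of WT_alpha3.

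**Figure D1:**
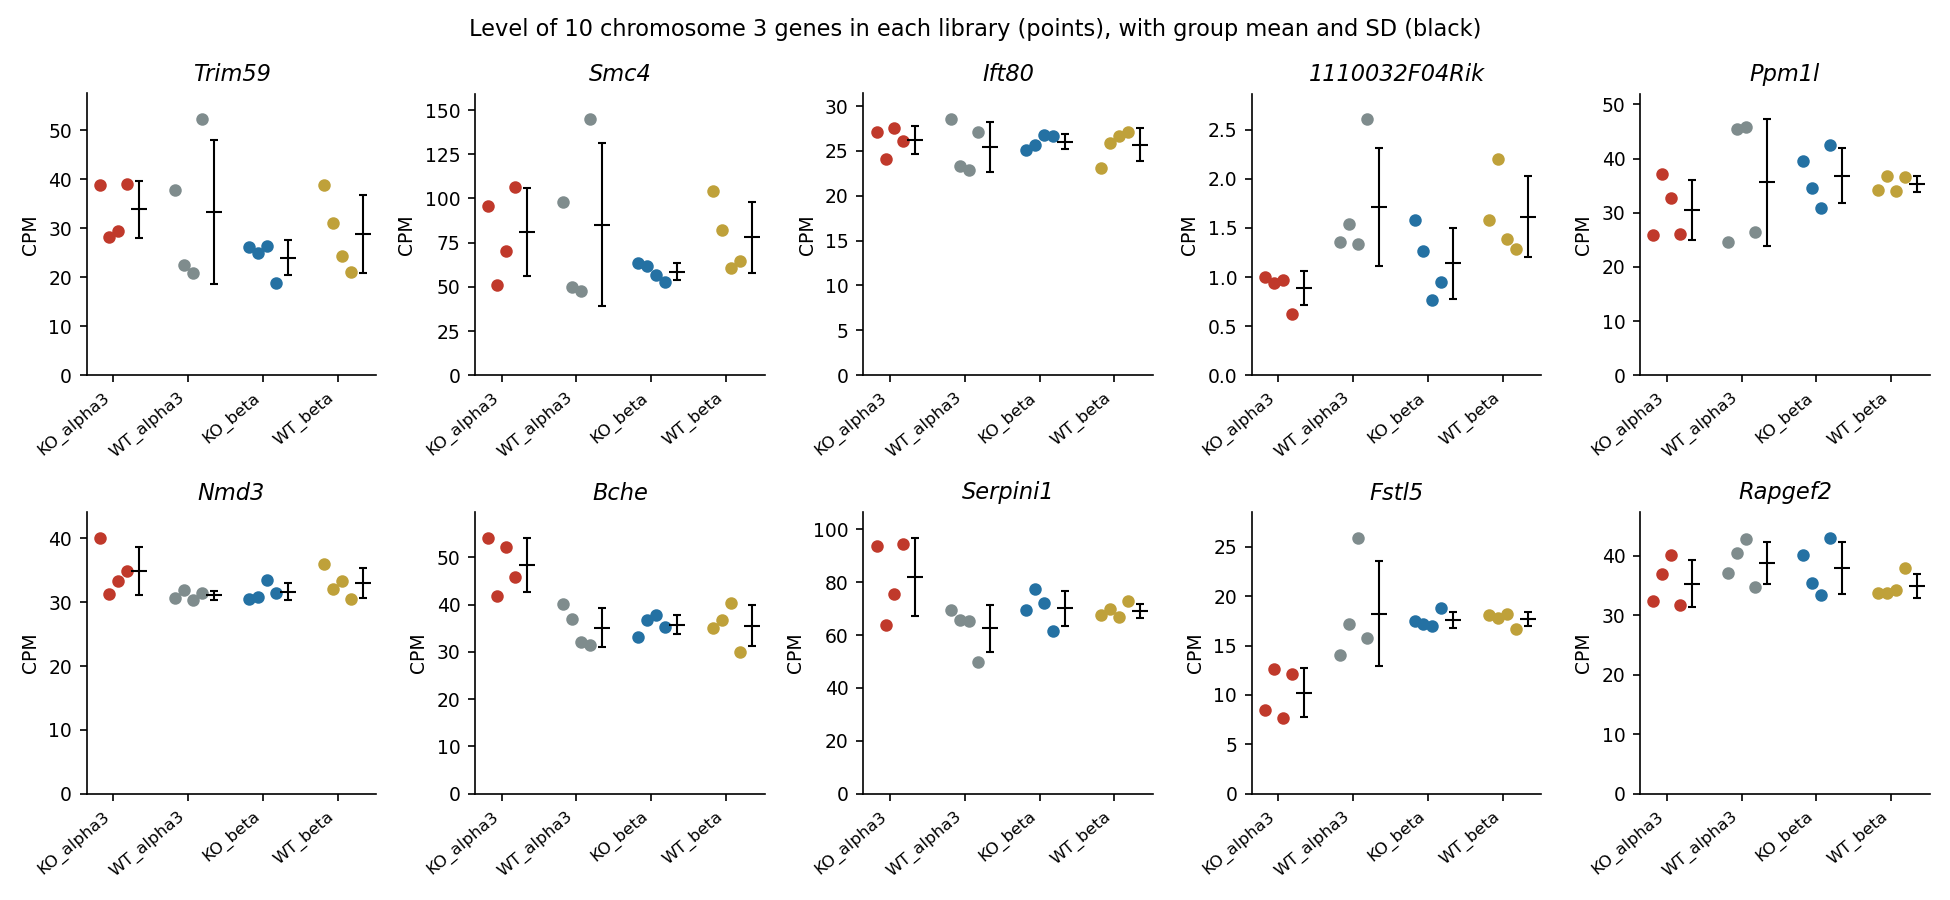
Level in CPM (linear axis from 0) of the 10 genes, 1 panel per gene, in KO_alpha3, WT_alpha3, KO_beta and WT_beta. Each point is a library, and black bars give the group mean and SD (n = 4). The 4 KO_alpha3 points lie above the other 12 for Bche and below the other 12 for Fstl5, while Smc4 spreads from 47.6 to 145 CPM within WT_alpha3 alone.

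Among the genes whose products are secreted or act outside the cell, Bche stood higher and Fstl5 lower in KO_alpha3 than in any other library. Bche encodes butyrylcholinesterase, an enzyme that splits choline esters. It had 54.1, 41.7, 52.2 and 45.8 CPM in KO_alpha3 and 33.1, 36.8, 37.8 and 35.3 CPM in KO_beta, against 40.04, 36.9, 32.1 and 31.4 CPM in WT_alpha3 and 35.1, 36.7, 40.3 and 29.9 CPM in WT_beta. Every KO_alpha3 library was above every other library, the closest being 41.7 CPM in library 50 of KO_alpha3 and 40.3 CPM in library 410 of WT_beta. The means were 48.5 ± 5.71 CPM in KO_alpha3 (SD, n = 4) and 35.3 ± 3.92 CPM in all wild types (SD, n = 8), a log2 fold change of 0.46 ± 0.09 (SE). Against WT_alpha3 alone it was 0.46 ± 0.11 (SE). The other 3 groups averaged nearly the same, at 35.7 ± 2.05 CPM in KO_beta, 35.1 ± 4.12 CPM in WT_alpha3 and 35.5 ± 4.33 CPM in WT_beta (SD, n = 4 each).

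The 3 genes of all those tested whose log2 CPM ran most like that of Bche over the 16 libraries were Ttyh2 (r = 0.897), Vim (r = 0.876) and Erbb3 (r = 0.833), given as a description. Bche was highest in KO_alpha3, so these likenesses may repeat the difference between groups. Erbb3 is the neuregulin receptor of Schwann cell precursors and is itself a gene of the glial list that follows. Vim encodes the intermediate filament vimentin of glia and progenitors. The list of 8 glial and Schwann precursor genes summed to 1162 to 1330 CPM in KO_alpha3, 1030 to 1282 CPM in KO_beta and 823 to 1154 CPM in all wild types, with none of its genes at 0 in a library. In KO_alpha3 against all wild types, 6 of the 8 had a positive log2 fold change and 2 a negative one, none past an adjusted p of 0.05, with a median of 0.20, while the median of all genes tested was -0.01. Across the 16 libraries, however, Bche had r = 0.04 and rho = 0.15 with the mean log2 CPM of that list (permutation p = 0.872 and 0.572, adjusted 0.969 and 0.635), and r = -0.07 without the 2 libraries farthest from the median of the list, among 20 relations chosen after seeing the data. With the list mean as a covariate, the log2 fold change of Bche was 0.45 ± 0.09 (SE). It was 0.49 ± 0.11 (SE) without 4 wild-type libraries (45 and 79 of WT_alpha3, 399 and 401 of WT_beta). These 4 were named by hand as high in RNA of other tissues, and no rule over the marker lists picked them. They were not the 4 highest in spinal cord genes. The mean log2 CPM of that list was 0.27 in library 399 and 1.39 in library 415 of WT_beta, which was kept. They were the 4 wild types highest in the mean of the cell cycle genes, so leaving them out changes both.

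Fstl5 encodes a secreted protein of the follistatin-like family. It had 8.47, 12.6, 7.69 and 12.1 CPM in KO_alpha3 and 17.5, 17.1, 17.0 and 18.8 CPM in KO_beta, against 14.1, 17.2, 25.9 and 15.8 CPM in WT_alpha3 and 18.05, 17.8, 18.2 and 16.7 CPM in WT_beta. All 4 KO_alpha3 libraries were below all 12 others, and 3 of the 4 groups lay near the same level, apart from library 55 of WT_alpha3, which was the highest. The means were 10.2 ± 2.48 CPM in KO_alpha3 (SD, n = 4) and 17.95 ± 3.51 CPM in all wild types (SD, n = 8), so that KO_alpha3 held 56.9% of the wild-type level. The log2 fold change was -0.81 ± 0.16 (SE) against all wild types and -0.84 ± 0.18 (SE) against WT_alpha3. The counts behind these values were 174 to 289 per library in KO_alpha3 and 320 to 503 in the wild types.

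Over the 16 libraries, the genes most like Fstl5 were Tmem132d (r = 0.882), Gpr179 (r = 0.880) and Kpna4 itself (r = 0.853). The 4 KO_alpha3 libraries are low in both Fstl5 and Kpna4, so this likeness to Kpna4 repeats the difference between groups. With the mean of 11 sensory neuron genes, Fstl5 had r = 0.36 and rho = 0.48 (permutation p = 0.177 and 0.0647, adjusted 0.304 and 0.144), and r = 0.50 without the 2 farthest libraries. The sensory neuron list summed to 6245 to 8936 CPM in KO_alpha3, 7850 to 8847 CPM in KO_beta and 4475 to 9575 CPM in all wild types, with none of its genes at 0 in any library. The log2 fold change of Fstl5 was -0.81 ± 0.14 (SE) with that list mean as a covariate and -0.92 ± 0.18 (SE) without the 4 libraries named above.

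Serpini1 encodes neuroserpin, a secreted inhibitor of tissue plasminogen activator made by neurons. It had 93.7, 63.8, 75.6 and 94.6 CPM in KO_alpha3 and 69.5, 77.3, 72.2 and 61.5 CPM in KO_beta, against 69.7, 65.6, 65.1 and 49.7 CPM in WT_alpha3 and 67.6, 69.7, 67.0 and 72.8 CPM in WT_beta. Here 3 of the 4 KO_alpha3 libraries were above all 8 wild types, and library 50 lay among them. The log2 fold change was 0.31 ± 0.11 (SE) against all wild types and 0.39 ± 0.13 (SE) against WT_alpha3, and the second value was 0.17 ± 0.12 (SE) with Y-linked reads as a covariate. The 2 KO_alpha3 libraries without Y-linked reads averaged 94.2 CPM and those with them 69.7 CPM, and the wild types without and with such reads averaged 69.3 and 62.5 CPM. Those 2, libraries 42 and 81, had cell cycle list means of 5.82 and 5.97, against 4.85 and 5.25 in 50 and 75. Within KO_alpha3, Y-linked reads and cell cycle genes can therefore not be told apart, and the covariate value does not separate them. With the cell cycle list, Serpini1 had r = 0.05 over 16 libraries. It had r = 0.72 without the 2 farthest libraries and r = -0.47 over the 12 libraries outside KO_alpha3. The head-to-head neighbour of Serpini1, Pdcd10, with 641 bases between the 2 genes, had a log2 fold change of -0.12 ± 0.08 (SE) against all wild types.

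Bche and Fstl5 were also set apart by Y-linked reads, as values only. Their KO_alpha3 libraries did not overlap the wild types, so any split of the libraries keeps the order, and nothing is read from it. Among libraries with Y-linked reads, Bche averaged 47.0 CPM in KO_alpha3 (n = 2) and 35.1 CPM in wild types (n = 4), and without them 49.9 CPM in KO_alpha3 (n = 2) and 35.5 CPM in wild types (n = 4). Fstl5 averaged 10.1 CPM in KO_alpha3 and 18.2 CPM in wild types where Y-linked reads were present, and 10.3 CPM in KO_alpha3 and 17.7 CPM in wild types where they were not. All wild types with Y-linked reads are WT_alpha3 and all without are WT_beta, so line and Y-linked reads cannot be told apart among wild types.

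Of the 9 tested genes within 1 Mb of Kpna4, only the uncharacterised gene 1110032F04Rik had KO_alpha3 and wild-type libraries that did not overlap, against 0.614% of all genes. 1110032F04Rik was chosen with this comparison in view, so nothing is read from its standing apart. It had 0.999, 0.937, 0.973 and 0.627 CPM in KO_alpha3 and 1.58, 1.27, 0.762 and 0.946 CPM in KO_beta, against 1.36, 1.54, 1.34 and 2.61 CPM in WT_alpha3 and 1.59, 2.20, 1.39 and 1.28 CPM in WT_beta. The KO_alpha3 libraries were below all 8 wild types, yet 2 of the 4 KO_beta libraries were as low as KO_alpha3. These levels rest on 15 to 25 counts per library in KO_alpha3, 16 to 42 in KO_beta and 26 to 59 in the wild types. The log2 fold change of KO_alpha3 was -0.91 ± 0.25 (SE) against all wild types and -0.95 ± 0.29 (SE) against WT_alpha3.

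1110032F04Rik was set beside the spinal cord genes, markers of a neighbouring tissue. Its log2 CPM had r = 0.69 and rho = 0.62 with the mean of the 11 tested spinal cord genes over 16 libraries (permutation p = 0.00341 and 0.0119, Benjamini-Hochberg adjusted over 20 relations 0.0171 and 0.0562), r = 0.45 without the 2 libraries farthest from the median of the list, and r = 0.41 with group means removed. The relation was thus weaker within groups than over all 16 libraries. Over the 12 libraries outside KO_alpha3 it had r = 0.68, so it did not rest on the KO_alpha3 libraries alone. Those 12 still hold KO_beta and the wild types, so differences between groups can be part of it. The 14 listed genes summed to 3.75 to 9.52 CPM in KO_alpha3, 2.92 to 22.0 CPM in KO_beta and 6.94 to 97.5 CPM in the wild types. All 11 tested ones had a negative log2 fold change in KO_alpha3 against all wild types, with a median of -2.51 and none past an adjusted p of 0.05, and all 11 had one in KO_beta as well, with a median of -1.54. Evx1 was at 0 in all 4 KO_beta libraries. With the list mean as a covariate, the log2 fold change of 1110032F04Rik in KO_alpha3 was -0.57 ± 0.30 (SE), and without the 4 wild-type libraries named above it was -0.63 ± 0.25 (SE). The part of spinal cord tissue in the difference was not tested.

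Smc4 and Trim59, the neighbours closest to Kpna4, varied widely between libraries of the same genotype. Smc4 encodes a core subunit of condensin, which compacts chromosomes for mitosis, and Trim59 a RING-type ubiquitin ligase of the tripartite motif family. Smc4 had 95.5, 51.2, 70.0 and 106 CPM in KO_alpha3 and 63.5, 61.8, 56.8 and 52.6 CPM in KO_beta, against 97.9, 49.8, 47.6 and 145 CPM in WT_alpha3 and 104, 82.3, 60.9 and 64.3 CPM in WT_beta. Trim59 had 38.8, 28.2, 29.5 and 39.0 CPM in KO_alpha3 and 26.1, 25.0, 26.3 and 18.8 CPM in KO_beta, against 37.8, 22.6, 20.8 and 52.3 CPM in WT_alpha3 and 38.9, 31.1, 24.4 and 21.0 CPM in WT_beta. Both genes were high in libraries 42 and 81 of KO_alpha3, 45 and 79 of WT_alpha3 and 399 of WT_beta, so that the groups overlapped over most of their range. The log2 fold change of KO_alpha3 against all wild types was -0.01 ± 0.27 (SE) for Smc4 and 0.12 ± 0.23 (SE) for Trim59. Without the 4 wild-type libraries named above, which are also the 4 wild types highest in Smc4, these values were 0.56 ± 0.20 (SE) and 0.63 ± 0.14 (SE). Libraries 42 and 81 of KO_alpha3, high in both genes, were kept in that fit.

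Both genes followed the cell cycle genes. Over the 16 libraries, Smc4 had r = 0.99 and rho = 0.96 with the mean log2 CPM of 30 cell cycle genes (permutation p = 1e-05 for each, the smallest that 100000 permutations can give, adjusted 0.0001 and 0.0002). Trim59 had r = 0.96 and rho = 0.91 (permutation p = 1e-05 and 2e-05, adjusted 0.0001 and 0.0002). The values without the 2 libraries farthest from the median of the list were r = 0.99 and r = 0.93, and with group means removed they were r = 0.99 and r = 0.97. The genes most like Smc4 were Dlgap5 (r = 0.993), Mcm7 (r = 0.989) and Uhrf1 (r = 0.989), and its nearest match within 10 Mb was Trim59 (r = 0.929). The mean log2 CPM of the list ran from 4.85 to 5.97 in KO_alpha3, 4.75 to 5.12 in KO_beta and 4.67 to 6.56 in all wild types. With the list mean as a covariate, the log2 fold change of KO_alpha3 was -0.02 ± 0.05 (SE) for Smc4 and 0.14 ± 0.07 (SE) for Trim59.

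**Figure D2:**
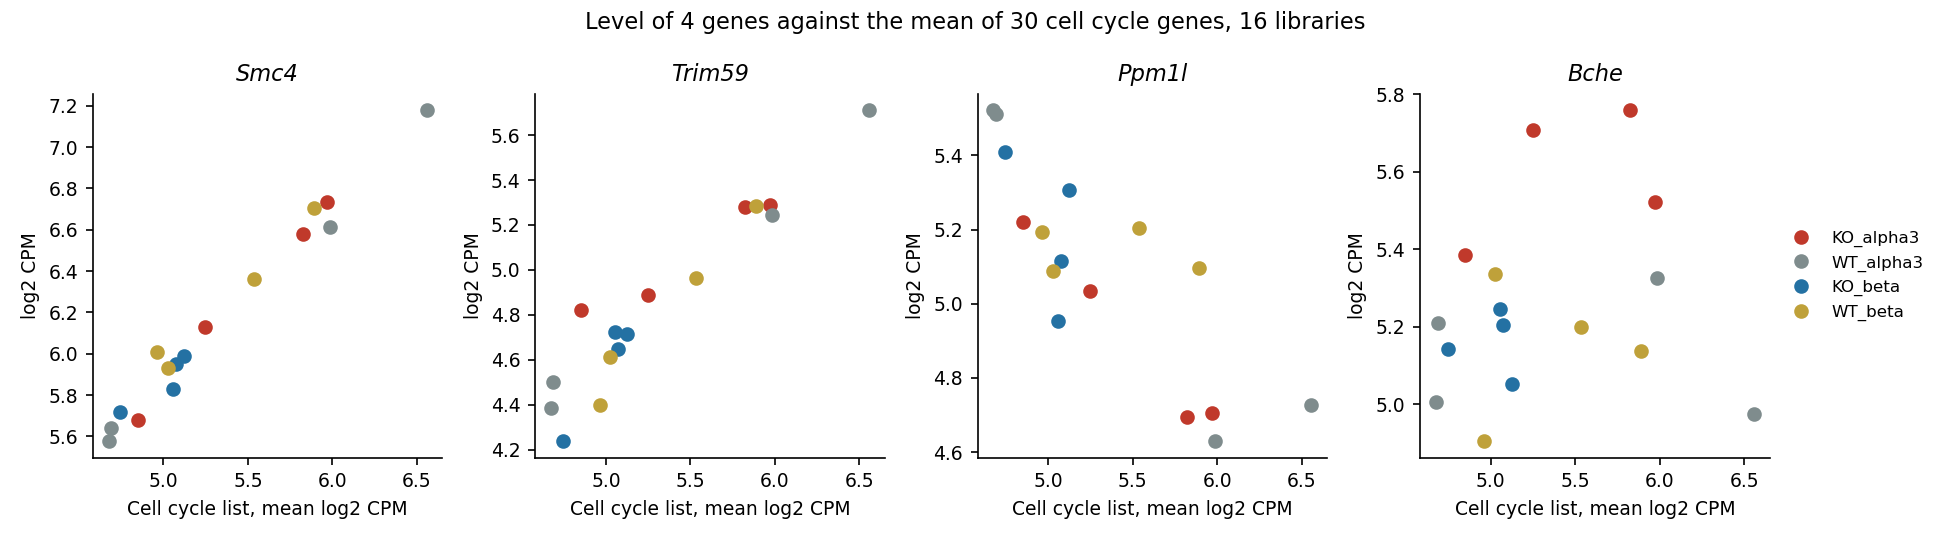
Level in log2 CPM of Smc4, Trim59, Ppm1l and Bche against the mean log2 CPM of 30 cell cycle genes, with 1 point per library coloured by group (16 libraries). Smc4 (r = 0.99) and Trim59 (r = 0.96) climb with the list and Ppm1l (r = -0.83) falls along it, with the groups intermingled, while the KO_alpha3 points for Bche (r = 0.18) lie above the others at any value of the list.

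The relation ran the other way for Ppm1l and Rapgef2. Ppm1l encodes a membrane-bound protein phosphatase of the PP2C family, and Rapgef2 an exchange factor that activates the small GTPase Rap1 in neurons. Ppm1l had 25.8 to 37.2 CPM in KO_alpha3 and 30.9 to 42.4 CPM in KO_beta, against 24.7 to 45.9 CPM in all wild types. It had r = -0.83 and rho = -0.81 with the cell cycle list (permutation p = 7e-05 and 0.00034, adjusted 0.000467 and 0.00227), and r = -0.79 without the 2 farthest libraries. It also had r = 0.82 and rho = 0.81 with the sensory neuron list (permutation p = 0.0001 and 0.00017, adjusted 0.0004 and 0.00113), and r = 0.78 without the 2 farthest libraries, among the 20 relations chosen after seeing the data. Rapgef2 had r = -0.63 and rho = -0.61 with the cell cycle list (permutation p = 0.0102 and 0.0141, adjusted 0.0407 and 0.0562), and r = -0.76 without the 2 farthest libraries. The log2 fold changes of KO_alpha3 against all wild types were -0.22 ± 0.16 (SE) for Ppm1l and -0.06 ± 0.09 (SE) for Rapgef2. For Ppm1l the value was -0.45 ± 0.19 (SE) with the spinal cord list as a covariate and -0.40 ± 0.14 (SE) without the 4 wild-type libraries named above. Against WT_alpha3 alone it was -0.23 ± 0.19 (SE), with -0.56 ± 0.15 (SE) without those libraries and -0.04 ± 0.22 (SE) with Y-linked reads as a covariate. That covariate rests mainly on the KO_alpha3 libraries, where Y-linked reads and cell cycle genes cannot be told apart. For Rapgef2 the spinal cord covariate gave -0.16 against all wild types.

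Of the 10 genes, Nmd3 and Ift80 varied least among wild types, with a coefficient of variation of 5.94% and 8.63% over 8 libraries, while Smc4 had 40.6%. Ift80 encodes a subunit of the intraflagellar transport complex that builds cilia, and although it stands head to head with Smc4, it did not share the spread of that gene. It had 24.1 to 27.5 CPM in KO_alpha3 and 25.1 to 26.8 CPM in KO_beta, against 22.8 to 28.5 CPM in all wild types, and its r with the cell cycle list was 0.38 (permutation p = 0.144, adjusted 0.321), or 0.19 without the 2 farthest libraries. Nmd3, the adaptor for nuclear export of the large ribosomal subunit, had 40.1, 31.3, 33.3 and 35.0 CPM in KO_alpha3 and 30.5 to 33.5 CPM in KO_beta, against 30.4 to 36.1 CPM in all wild types. Library 42 of KO_alpha3 was the highest of the 16 and the other 3 lay among the wild types. Set against WT_alpha3 alone, 3 KO_alpha3 libraries were above all of them. With the cell cycle list, Nmd3 had r = 0.40 (permutation p = 0.128, adjusted 0.320), or 0.77 without the 2 farthest libraries. The log2 fold changes of KO_alpha3 against all wild types were 0.04 ± 0.07 (SE) for Ift80 and 0.12 ± 0.07 (SE) for Nmd3. Against WT_alpha3 alone they were 0.04 ± 0.08 (SE) and 0.17 ± 0.08 (SE).

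The β1 libraries test the same genes in a knockout on another chromosome, and were not used to choose the genes. The wild types they are set against are the same ones, which were part of that choice. In KO_beta against all wild types, 0 of the 10 passed an adjusted p of 0.05 in edgeR's quasi-likelihood test, where 0% of all 15641 genes tested passed. The lowest adjusted p was 0.932, and 1 gene, 1110032F04Rik, had an unadjusted p under 0.05, against 2.23% (349) of all genes. DESeq2 called 1 gene of all in this comparison and 0 of the 10. The log2 fold change of 1110032F04Rik was -0.54, with a 95% interval of -1.06 to -0.01 (unadjusted p = 0.0449 and adjusted p = 0.932 in edgeR). For Bche the log2 fold change was 0.02 with an interval of -0.17 to 0.21, and for Fstl5 it was -0.03 with an interval of -0.35 to 0.30. Serpini1 had 0.09, with an interval of -0.14 to 0.32. Smc4 had -0.47, with an interval of -1.06 to 0.11, and Trim59 -0.37, with an interval of -0.86 to 0.12. All 30 cell cycle genes had a negative log2 fold change in the same comparison, with a median of -0.57 and none past an adjusted p of 0.05, and with their mean as a covariate the values were -0.04 ± 0.05 (SE) for Smc4 and -0.03 ± 0.07 (SE) for Trim59.

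Wild types of the 2 lines were compared for the same genes. These wild types were part of the comparison that helped to choose the genes, so likeness between them may be shaped by that choice. In WT_alpha3 against WT_beta, 0 of the 10 passed an adjusted p of 0.05 in edgeR's quasi-likelihood test, where 0.0192% of all genes passed, and none had an unadjusted p under 0.05, against 5.27% of all genes. For Bche, the log2 fold change between these wild types was -0.02, with a 95% interval of -0.25 to 0.22, and for Fstl5 it was 0.04, with an interval of -0.35 to 0.43. With Y-linked reads as a covariate, Bche had 0.10 ± 0.18 (SE) between these wild types. Line and Y-linked reads cannot be told apart there, since only KO_alpha3 holds libraries with and without such reads. That fit takes the effect of Y-linked reads mainly from KO_alpha3, so nothing is read from this value.

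**Figure D3:**
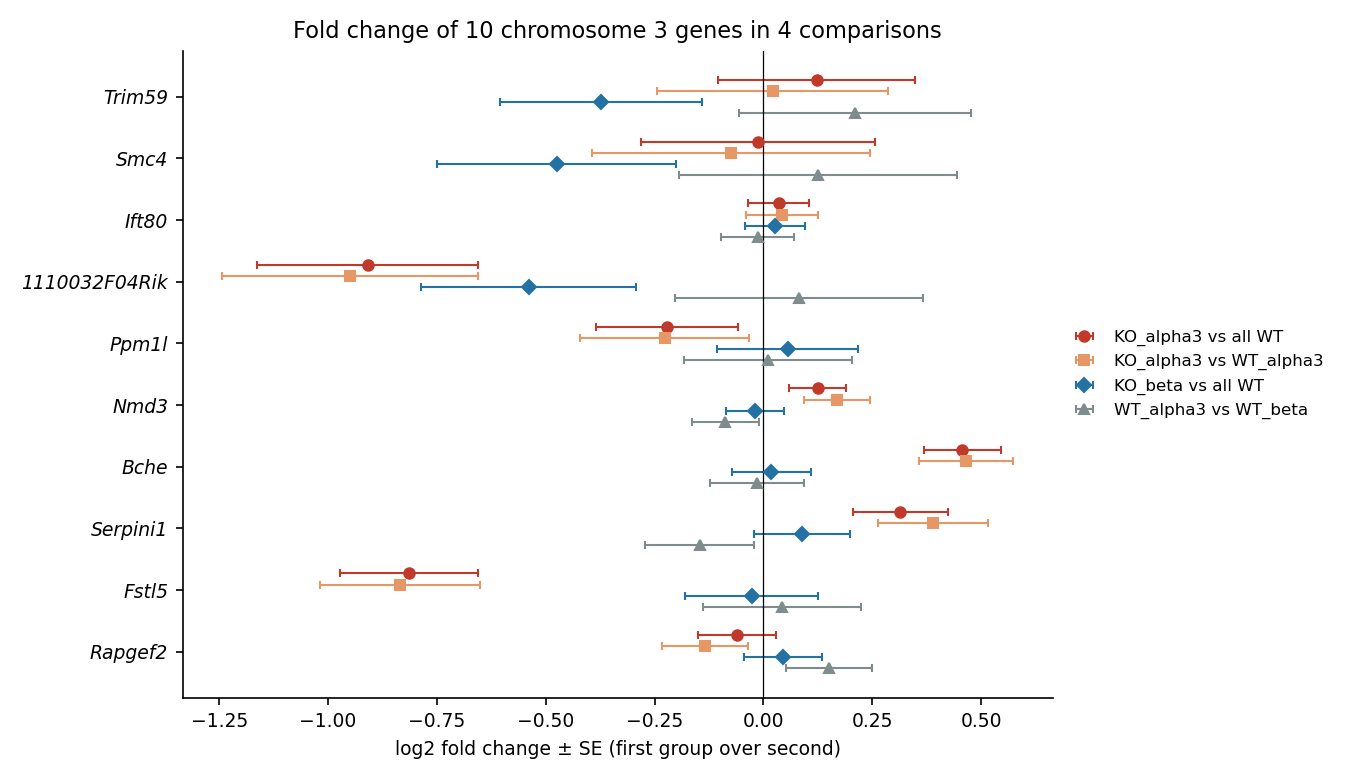
Log2 fold change (horizontal axis, first group over second) with its SE for the 10 genes, ordered from nearest to farthest on each side of Kpna4, in 4 comparisons marked by colour and symbol. Fstl5 (-0.81) and Bche (0.46) stand off 0 in the KO_alpha3 comparisons and lie at -0.03 and 0.02 in KO_beta against all wild types.

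The window was then read as a whole. In KO_alpha3 against all wild types, libraries did not overlap for 3 of the 48 tested genes within 10 Mb, against 0.614% of all genes. These 3 are Bche, higher, and Fstl5 and 1110032F04Rik, lower, all among the 10 chosen genes, and none of the 38 others did so. Set against all 12 other libraries, 2 genes, Bche and Fstl5, stood apart, against 0.205% of all genes. In KO_alpha3 against WT_alpha3 alone, the libraries of the same 3 genes did not overlap and Ssr3 was added, higher, against 1.8% of all genes. Nothing is read from these counts about the chosen genes, since the choice used them.

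Of the 38 window genes that were not chosen, 0 passed an adjusted p of 0.05 in edgeR's quasi-likelihood test in KO_alpha3 against all wild types, where 0.00639% of all genes, Kpna4 alone, passed. DESeq2 called 0 of these 38, among 128 genes in all, and edgeR without library 50 of KO_alpha3 called 1, Rsrc1, among 124. At an unadjusted p under 0.05, 4 window genes were higher and 6 lower in KO_alpha3, or 20.8% of 48, against 10.8% of all genes and 13.1% of the 703 tested genes on the rest of chromosome 3. This count rested on single libraries: it was 4 of 48 without library 42 of KO_alpha3, 5 without library 81 and 20 without library 50. The 48 include the 10 chosen genes, and nothing is read from their share. Of the 38 that were not chosen, 2 were higher and 4 lower, or 15.8%. Against WT_alpha3 alone the window had 6 higher and 4 lower (20.8%), against 5.98% of all genes, and 5 genes without library 42 and 17 without library 50. Of the 38, 3 were higher and 2 lower there, or 13.2%. In KO_beta against all wild types it had 1 higher and 2 lower (6.25%), against 2.23% of all genes, and 0 or 1 without 1 of library 79 of WT_alpha3, 401 of WT_beta, or 402, 406 or 411 of KO_beta.

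The sizes of the differences were set out in bands of distance from Kpna4. The bands hold the 10 chosen genes as well as genes of low level, so nothing about distance is read from their medians. In KO_alpha3 against all wild types, the median absolute log2 fold change was 0.12 over the 9 tested genes within 1 Mb, 0.20 over the 17 between 1 and 5 Mb and 0.24 over the 22 between 5 and 10 Mb. It was 0.11 over the rest of chromosome 3 and 0.11 over all genes tested. Against WT_alpha3 alone the medians were 0.17 within 1 Mb, 0.26 between 1 and 5 Mb and 0.22 between 5 and 10 Mb, so the outer bands changed places. Over the whole window, the median in KO_alpha3 against all wild types was 0.20, and it was also 0.20 over the 38 genes that were not chosen. In KO_beta against all wild types the whole window had 0.10, the 38 had 0.11 and all genes 0.10. The signed median of the window in KO_alpha3 was -0.05, with 21 positive and 27 negative values, against -0.01 over all genes.

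**Figure D4:**
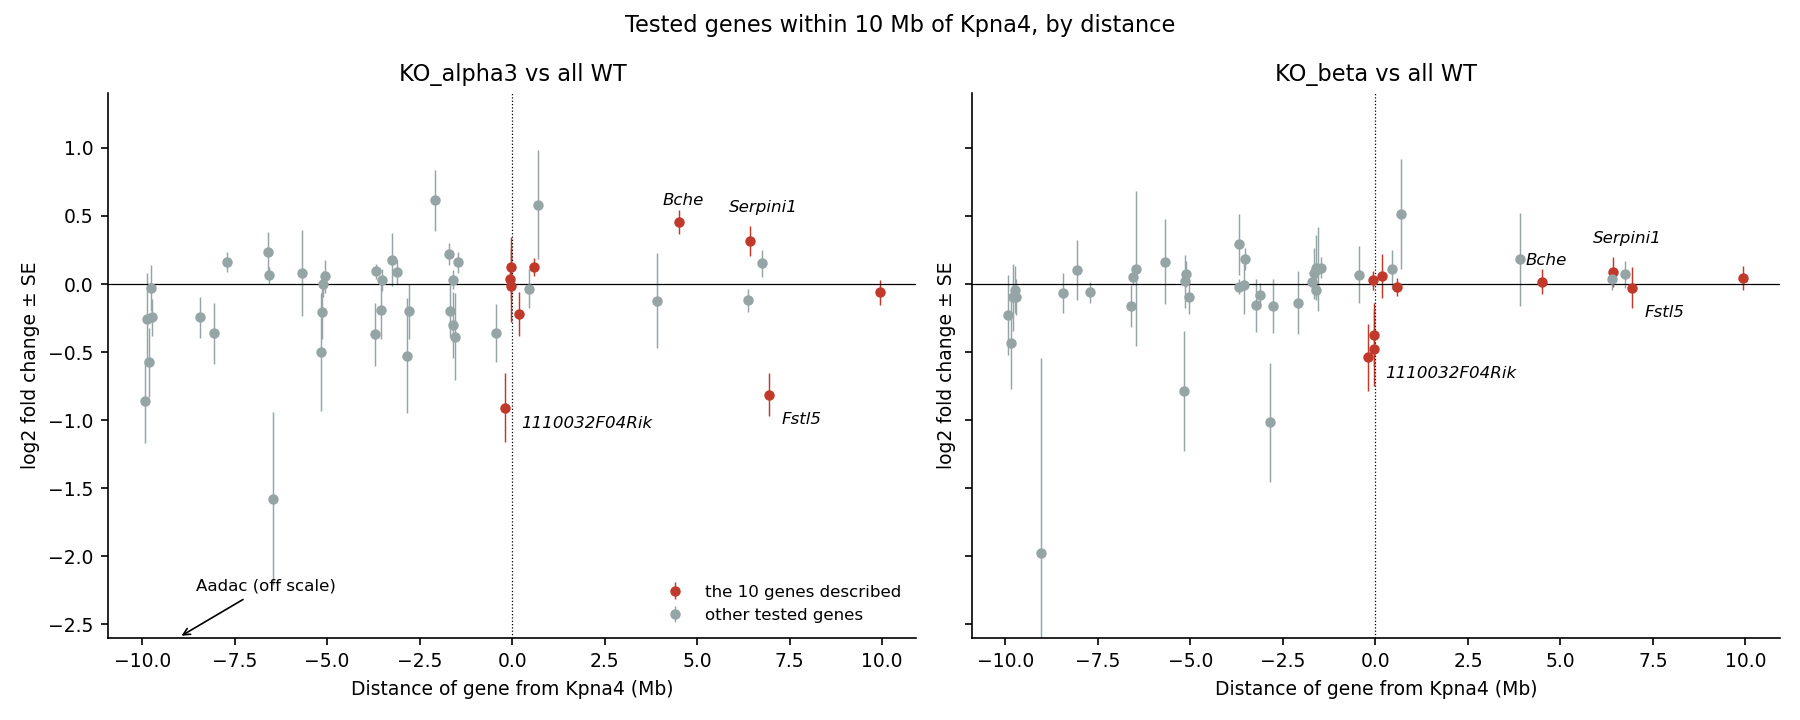
Log2 fold change with its SE of the 48 tested genes within 10 Mb against their distance from Kpna4 (Mb, lower coordinates negative), for KO_alpha3 (left) and KO_beta (right) against all wild types. The 10 chosen genes are red and the other 38 grey, and Aadac (-4.51 ± 1.82 in KO_alpha3, on the left) lies below the axis. Fstl5, Bche and Serpini1 leave 0 in the left panel and lie near it in the right one. 1110032F04Rik lies below 0 in both, at -0.91 and -0.54. The comparison on the left helped to choose the 10 genes.

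Other neighbours show what the chosen genes leave out. Of the 5 tested genes nearest on each side, Schip1 had a log2 fold change in KO_alpha3 against all wild types of -0.36 ± 0.21 (SE), B3galnt1 -0.04 ± 0.14, Sptssb 0.58 ± 0.40 and Slitrk3 -0.12 ± 0.35. The 4 genes that were not chosen and had the lowest p in that comparison lay 1.71 to 9.92 Mb away. Shox2, a homeobox transcription factor, had 0.61 ± 0.22 (SE), and Rsrc1, a splicing factor, 0.22 ± 0.08. P2ry14, a receptor for UDP-sugars, had -0.86 ± 0.31, and the orphan receptor Gpr149 had -1.58 ± 0.64. In all 4, the KO_alpha3 libraries overlapped the wild types. At the edge of the window, Rapgef2 lay just inside at 9.94 Mb, with -0.06 ± 0.09 (SE), and just outside were Fnip2 at 10.3 Mb, with 0.03 ± 0.09, and Clrn1 at 10.2 Mb on the other side, with -1.59 ± 0.72.

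Marker lists of other tissues were read in the same way. In KO_alpha3 against all wild types, all 11 tested skeletal muscle genes, 8 of 8 epidermal, 6 of 6 liver, 6 of 6 macrophage and 8 of 8 sympathetic genes had negative log2 fold changes, none past an adjusted p of 0.05. KO_beta against the same wild types was alike, with 11 of 11 muscle, 7 of 8 epidermal, 6 of 6 liver, 6 of 6 macrophage and 7 of 8 sympathetic genes negative. The muscle list summed to 27.9 to 234.8 CPM in KO_alpha3, 73.0 to 298 CPM in KO_beta and 90.4 to 1002 CPM in all wild types. Fibroblast genes summed to 951 to 1996 CPM in KO_alpha3, 1722 to 2402 CPM in KO_beta and 1640 to 2836 CPM in all wild types, and erythroid genes to 599 to 2684 CPM in KO_alpha3, 368 to 3127 CPM in KO_beta and 340.3 to 9492 CPM in all wild types. Without the 4 wild-type libraries named above, the log2 fold changes in KO_alpha3 were as already given for Fstl5, Bche, 1110032F04Rik, Smc4, Trim59 and Ppm1l. For Serpini1 the value was 0.30 ± 0.12 (SE). The part of these tissues in the differences was not tested.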

How the data were processed

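Raw counts per gene symbol, as deposited by the authors, were the unit of every test. The submitters' processing notes list the aligner TopHat2 2.0.10, the counter HTSeq 0.6.1p1 and build mm10, besides bcl2fastq, cutadapt and DESeq2. Which annotation and strand setting were used is not given here by label or file; reads of overlapping or antisense genes can therefore not be told apart. Of 24421 symbols, 24299 (99.5%) were placed with RefSeq on GRCm38.p6, and distances run between gene ends. Totals were 19682595 to 26873361 counts per library.

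edgeR 4.0.16 in R 4.3.3 was used with TMM scaling, filterByExpr (minimum count 10, minimum total 15), quasi-likelihood tests and Benjamini-Hochberg adjustment over 15641 genes at 0.05. Fits had 3 groups (all wild types together) or 4, and every fit used all 16 libraries. Log2 CPM used a prior count of 2. Marker list relations used 100000 permutations, adjusted over 20 relations, and 20 further relations with the glial and sensory neuron lists, chosen after seeing the data, were adjusted among themselves. Members, marker lists and the naming rule were chosen with earlier results of these data known. The named genes were Kpna4, the 10, the 5 nearest tested genes on each side, the 4 other window genes with at least 1 CPM on average and the lowest p, and the 3 genes most like Bche, Fstl5 and Smc4; Pdcd10, Ssr3, Aadac, Fnip2 and Clrn1 were named with their values already known. Each result was repeated with other scalings, filters, tools (DESeq2 1.42.0, limma-voom 3.58.1), covariates, windows, thresholds and left-out libraries. The scripts were tested on simulated data.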

Additional observations from a re-analysis of the deposited data

Results flagged for a closer look

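The samples of each group were checked for 1 library standing far from the other 3, for each of the 10 genes, which makes 40 groups, of which about 2 would stand out by chance. In 1110032F04Rik, library 81 of KO_alpha3 was low at 0.627 CPM, which rests on 15 counts, and library 79 of WT_alpha3 was high at 2.61 CPM. Without library 81 the log2 fold change of that gene in KO_alpha3 against all wild types was -0.78. In Rapgef2, library 415 of WT_beta was high at 37.9 CPM while the other 3 of its group were at 33.6 to 34.3 CPM.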

How the results depend on the processing

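No paired analysis was possible because no replicate number is shared between groups. Scalings moved the median log2 fold change of all genes by at most 0.05. The 10 genes kept 0 calls in the KO_beta and wild-type comparisons under all 31 alternatives. In KO_alpha3 against all wild types, log2 fold changes ran from 0.39 to 0.54 for Bche, -0.92 to -0.69 for Fstl5, -0.98 to -0.57 for 1110032F04Rik and 0.24 to 0.44 for Serpini1; Smc4 changed sign in 11 of them and ran from -0.18 to 0.56. With 4 libraries per group, counts of calls move with single libraries, and 1110032F04Rik is limited by 15 to 59 counts. The causes below were not tested.

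Genes past an adjusted p of 0.05 numbered 1 in KO_alpha3 against all wild types, 1 against WT_alpha3, 0 in KO_beta and 3 between wild types. DESeq2 gave 128, 3, 1 and 29. Between wild types, fitting only the groups compared gave 9 and a Y-linked covariate 5, though line and Y-linked reads cannot be told apart there. Leaving out each library gave 1 to 124 in KO_alpha3 against all wild types, with 124 only without library 50 of KO_alpha3, and 2 to 7 between wild types.

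Window genes at an unadjusted p under 0.05 numbered 10 in KO_alpha3 against all wild types, 10 against WT_alpha3 and 3 in KO_beta. A 20 Mb window gave 26, 18 and 6, and a p under 0.01 gave 3, 4 and 0. The cell cycle covariate gave 17, 17 and 0, and leaving out the 4 wild types named above gave 20, 22 and 0. A 5 Mb window gave 4 in KO_alpha3 against all wild types and 5 against WT_alpha3. The Y-linked covariate gave 5 in KO_alpha3 against WT_alpha3 and 5 in KO_beta, and only the groups compared gave 4 in KO_alpha3 against WT_alpha3. Leaving out each library gave 4 to 20, 5 to 17 and 0 to 3.

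In KO_beta against all wild types, Bche reversed to -0.0022 with upper quartile scaling, -0.013 with library size only and -0.024 with the spinal cord covariate, and ran from -0.020 to 0.048 over left-out libraries. Fstl5 reversed to 0.0018 with limma-voom and ran from -0.081 to 0.068. Without the 4 wild types, Smc4 reversed to 0.075 and Trim59 to 0.11. Between wild types, Fstl5 reversed to -0.013 with library size only and -0.015 with limma-voom, and ran from -0.18 to 0.13. Bche reversed to 0.10 with the Y-linked covariate, which cannot be told apart from line there, and ran from -0.11 to 0.029.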
